A study of Homo sapiens with 8 samples.

Results

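The response of A549 cells to forced expression of MGA was read from 4 of the 8 RNA sequencing libraries of the study, all made from poly(A)-selected RNA. A549 is an established human lung adenocarcinoma cell line. The 4 libraries are all those whose treatment label is MGA (an MGA overexpression vector, replicates A and B) or Empty (the same cells with an empty vector, replicates A and B). The other 4 libraries come from A549 cells given a negative control siRNA (siNC) or an siRNA that silences MYC (siMYC), again in replicates A and B. The sources used here do not give the promoter of the vector, the form of MGA it carries, the time after its introduction or whether cells were selected or cloned. The labels leave unsaid whether A and B were grown apart; p-values therefore speak of the scatter of these libraries alone, possibly a technical one.

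MGA is a very large DNA-binding protein with a T-box domain and a basic helix-loop-helix leucine zipper. Through the zipper it pairs with MAX, the obligate partner of the MYC oncoprotein, and such pairs bind the E-box sequence CACGTG. MGA is also the scaffold of the Polycomb complex PRC1.6, which keeps germline genes silent in somatic cells, and it is recurrently inactivated in lung adenocarcinoma. In the terms of the series' title and design, the comparison asks which genes change when more MGA is supplied to a lung adenocarcinoma line.

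MGA (ENSG00000174197.12) itself was counted 105 and 68 times in the empty vector libraries A and B, and 112295 and 88788 times in the MGA libraries A and B. That amounts to 9.542% and 9.677% of everything counted there, so the MGA row was left out of the library totals and of the tests below. Per length, in the deposited TPM, MGA stood at 21.55 and 10.22 in the empty vector libraries and at 17267.01 and 17758.82 in the MGA libraries. A fit that kept the row put it at 9.98 on the log2 scale (SE 0.10, adjusted p = 1.2e-32). Totals without MGA were 844372 and 820360 counts in the empty vector libraries and 1064595 and 828760 in the MGA libraries, which is shallow for single genes of low abundance. Replicate counts differed by slightly more than sampling noise, at a chi-square of 1.18 (empty vector) and 1.13 (MGA) for each degree of freedom. Of 14 epithelial and A549 markers none was at 0 in all libraries, whereas CDH5, ERG, KDR and VWF of the endothelial list, and CD3D, CD3E, MS4A1, PTPRC, HBA1 and HBB of the leukocyte and blood list, were at 0 in all 4 libraries. That last list summed to 213 and 203 CPM (here of the library total, without TMM scaling) with empty vector and to 174 and 183 with MGA, nearly all from CD68, a lysosomal protein of macrophages and other cells (log2 fold change -0.32, adjusted p = 0.12). The 8 fibroblast markers, of which DCN and PDGFRA were at 0 in all 4 libraries, summed to 43.8 and 42.7 against 65.6 and 65.2 on the same scale, and ACTA2, smooth muscle actin, was called higher among them (log2 fold change 1.14, adjusted p = 0.033). That call was lost with any 1 of the 4 libraries left out, and only 2 of the 8 markers had enough counts to be tested. The part of these markers in the results below was not tested.

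Of 11224 genes tested, 995 were called at an adjusted p under 0.05, which is 8.86% of them. Among these, 509 genes (4.53% of those tested) rose with MGA and 486 (4.33%) fell. Of these, 386 rises and 313 falls were at least 1.5-fold, and 129 and 107 were at least 2-fold. Of 275 tested genes in 11 cell cycle lists, 63 fell and 5 rose. Of 163 tested genes in 8 stress lists, 23 rose and 16 fell, and of 93 in 5 signalling lists, 18 rose and 6 fell. With a library left out, 20 to 34 cell cycle genes fell, 15 to 18 stress genes rose and 6 to 8 fell, and 11 or 12 signalling genes rose. The lists as a whole hold 204 of the 486 falls but only 99 of the 509 rises, so most genes that rose belong to none of the families described here. The median log2 fold change over all genes tested was -0.004.

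**Figure D1:**
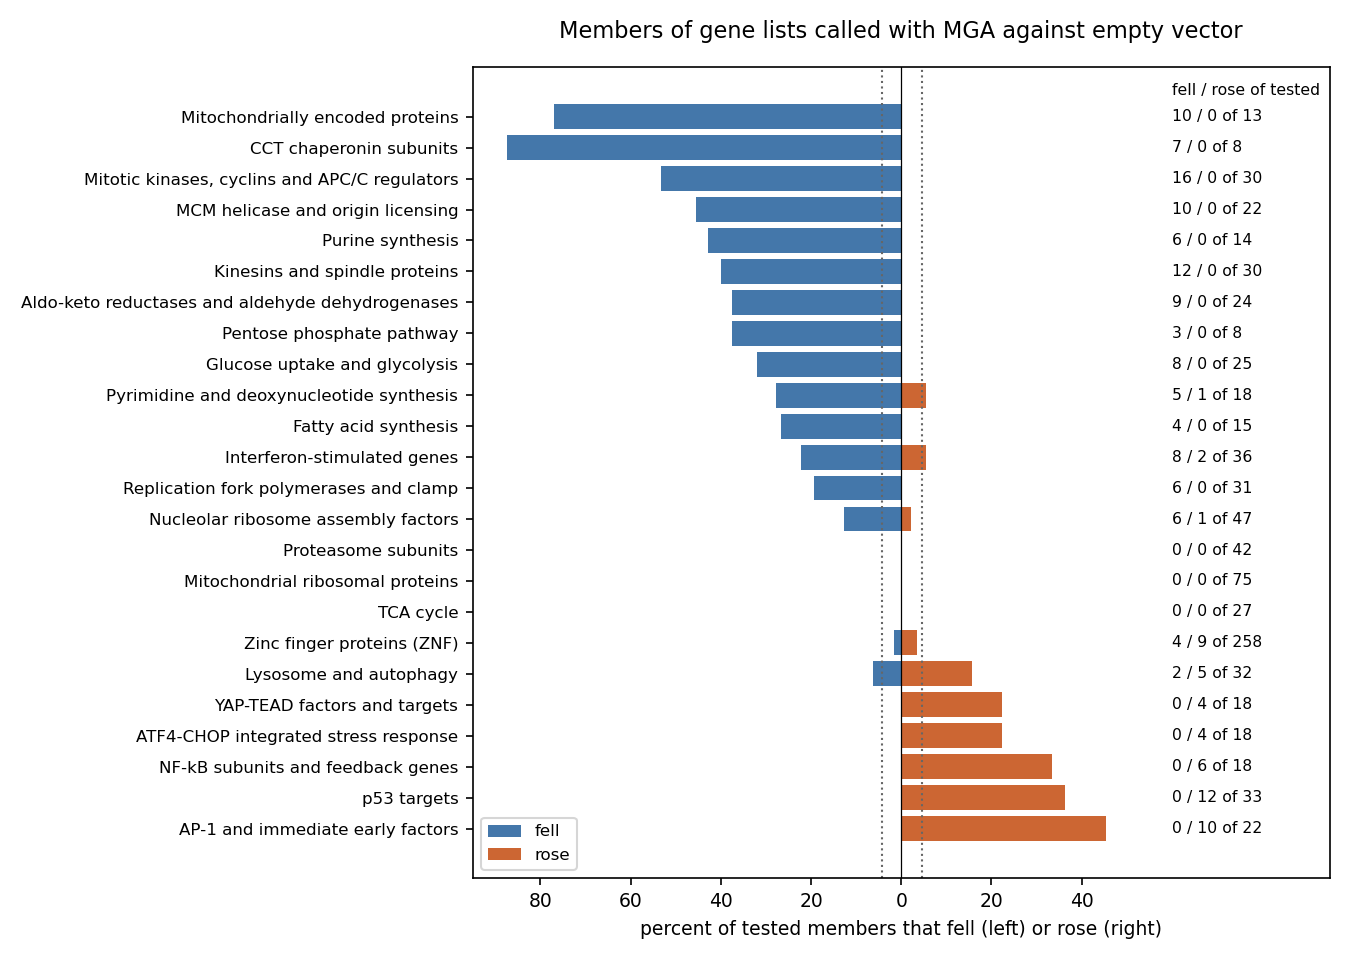
Members of 24 gene lists called with MGA against empty vector, as a percent of the tested members, with falls to the left and rises to the right (edgeR, adjusted p under 0.05). Dotted lines mark the shares over all genes tested, 4.33% for falls and 4.53% for rises, and the text at the right gives falls, rises and tested members, such as 16, 0 and 30 for mitotic kinases, cyclins and APC/C regulators.

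The split between rises and falls depended on how libraries were scaled. It was 51.2% rises in the fit used here, 38.2% with upper-quartile size factors (390 rises, 630 falls) and 58.5% with library totals alone (600 rises, 426 falls). When totals alone were used with the MGA row kept in them, a setting chosen after the data were seen, 26.7% were rises (300 against 823), and the median of all genes moved to a log2 fold change of -0.117. The counts also rested on both libraries of each group: leaving out empty vector A, empty vector B, MGA A or MGA B left 410, 389, 397 or 457 called genes. Of these, 394, 369, 371 and 432 were among the 995. For single genes below, the call held with each of the 4 libraries left out in turn unless a library is named.

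**Figure D2:**
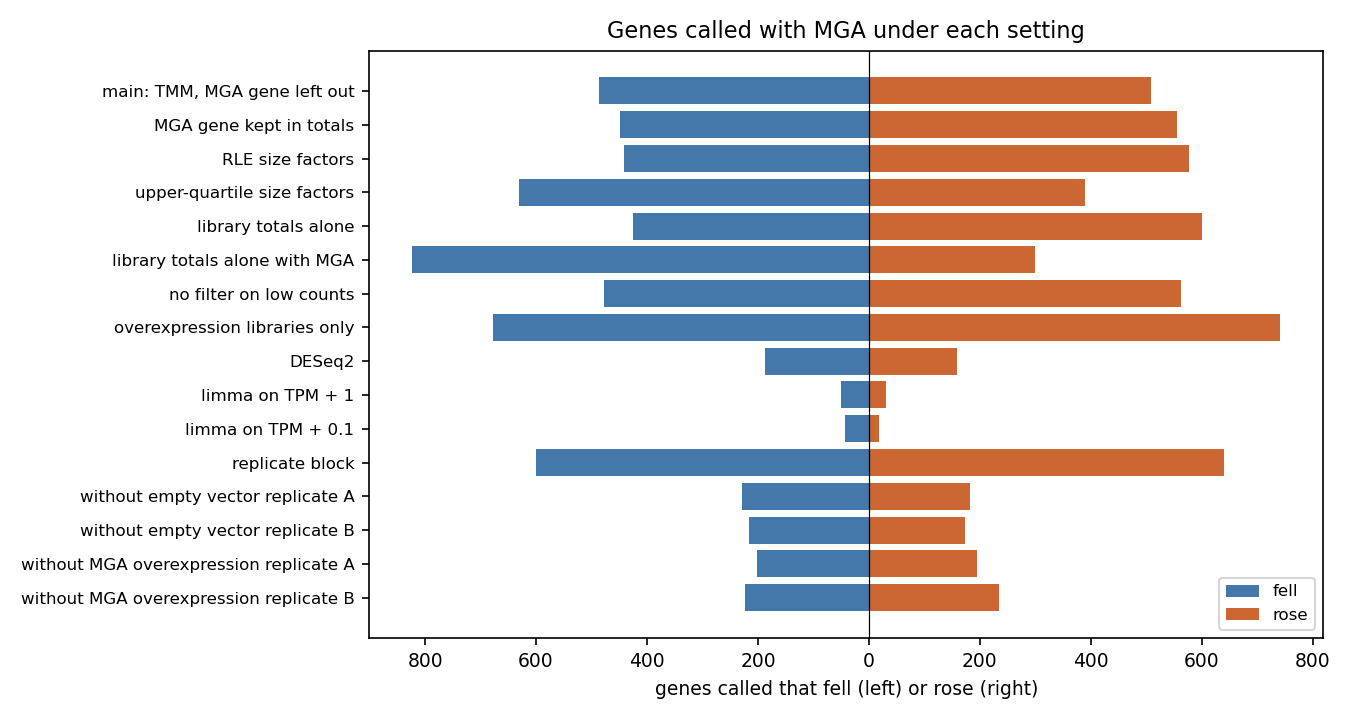
Number of genes called with MGA against empty vector under each setting, falls to the left and rises to the right. The main fit has 486 falls and 509 rises, DESeq2 has 187 and 158, and library totals that include MGA have 823 and 300.

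Promoter sequences show where the E-box lies in some of the genes that fell. In the RefSeq promoter table (GRCh38.p14, 250 bases before to 50 after the start of each gene), 9002 of the 11224 genes tested had a window (80.2%), and 10.4% of these windows held CACGTG, a sequence that reads the same on both strands. Over all 27305 RefSeq promoters the share was 7.43%. For genes that fell, only 78.2% had a window, below the 80% required here, so no share is given for them as a whole. Among genes that fell and belong to lists of chaperones, proteasome, mitochondrial import and carriers, ribosome assembly, translation, RNA processing and nuclear transport, 10 of 40 windows (25%) held CACGTG, among those of the cell cycle lists 11 of 54 (20.4%), and among all genes that rose 12.1%. The 10 include HSPD1 and HSPE1, whose windows share the same E-box. Other list sets with enough windows went both ways. Genes that rose in the cell cycle lists held CACGTG in 2 of 5 windows (40%). In the signalling lists it was in 3 of 15 windows (20%) of rises and 0 of 5 of falls. It was in 3 of 14 windows of falls in the stress lists and 1 of 8 of rises in the immune lists. Members of these lists that were not called were not counted apart, so whether these shares go with the response was not tested. The 6 promoters below belong to genes that fell in one of the lists and hold the E-box in capitals. Each line gives the bases just before the RefSeq start, 5′ to 3′ on the strand of the gene.
HSPD1, chr2:197500275-197500374, minus strand: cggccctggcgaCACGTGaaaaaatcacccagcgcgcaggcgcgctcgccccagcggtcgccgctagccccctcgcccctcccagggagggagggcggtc
HSPE1, chr2:197500279-197500378, plus strand: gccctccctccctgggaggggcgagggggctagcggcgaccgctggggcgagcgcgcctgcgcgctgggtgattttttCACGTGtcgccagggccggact
LDHA, chr11:18394463-18394562, plus strand: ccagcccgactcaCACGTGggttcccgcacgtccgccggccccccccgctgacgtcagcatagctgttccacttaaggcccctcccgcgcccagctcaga
SLC7A5, chr16:87869508-87869657, minus strand: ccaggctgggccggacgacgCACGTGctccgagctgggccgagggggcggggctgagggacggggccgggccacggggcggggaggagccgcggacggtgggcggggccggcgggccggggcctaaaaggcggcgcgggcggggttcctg
EIF4B, chr12:53006356-53006455, plus strand: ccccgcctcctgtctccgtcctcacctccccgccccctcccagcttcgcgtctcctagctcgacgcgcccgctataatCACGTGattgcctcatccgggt
FEN1, chr11:61792811-61792910, plus strand: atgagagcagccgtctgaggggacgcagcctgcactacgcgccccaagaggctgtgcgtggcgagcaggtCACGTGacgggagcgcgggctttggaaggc

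HSPD1 and HSPE1, whose products form the folding chamber of the mitochondrial matrix, are transcribed away from each other with 104 bases between their starts, and the capitals in their lines are one and the same E-box at chr2:197500357-197500362. HSPD1 stood at 1149 and 1159 CPM (normalised counts after TMM scaling) with empty vector and at 537 and 520 CPM with MGA. HSPE1 stood at 175 and 173 CPM with empty vector and at 59.2 and 66.6 CPM with MGA. Both genes were lower in both MGA libraries, with log2 fold changes of -1.13 (SE 0.08, adjusted p = 1.1e-09) and -1.47 (SE 0.16, adjusted p = 2.1e-07). SLC7A5, the large neutral amino acid transporter, went from 1571 and 1668 to 896 and 895 CPM (log2 fold change -0.86, SE 0.11). EIF4B, a cofactor of the translation initiation helicase, went from 417 and 385 to 269 and 228 CPM (log2 fold change -0.68, SE 0.11). FEN1, the nuclease that trims Okazaki fragments, went from 108 and 101 to 55.5 and 47.5 CPM (log2 fold change -1.01, SE 0.18). In none of these genes did the groups overlap, which is common with 2 libraries per group. Over all 11224 genes tested, both MGA libraries lay above both empty vector libraries in 2913 and below them in 3012. These are matches of letters in a fixed window, and binding of MGA, MAX or MYC was not measured in the data used here.

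Of 9 tested members of the MYC-MAX-MLX network, to which MGA and its partner MAX belong, 2 rose and none fell (22.2% called, against 8.86% over all genes tested), and the list's median log2 fold change was 0.41. MNT, a MAX partner that represses E-box genes, stood at 25.0 and 22.2 CPM with empty vector and at 39.8 and 54.7 CPM with MGA (log2 fold change 0.97, SE 0.27, adjusted p = 0.022). MYC stood at 241 and 248 CPM against 300 and 353 CPM (log2 fold change 0.41, SE 0.12, adjusted p = 0.032). Both calls were lost without empty vector A, without empty vector B and without MGA B. MAX, at 56.0 and 56.7 against 76.8 and 82.0 CPM, reached 0.49 (SE 0.19, adjusted p = 0.12), and the values for MXD1 and MXD4 (0.60 and 0.90) did not pass the test either.

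Of 15 tested subunits of PRC1.6, 2 fell and none rose (13.3% called). WDR5, a histone methylation reader, went from 89.3 and 82.6 to 48.1 and 57.0 CPM (log2 fold change -0.72, SE 0.19, adjusted p = 0.015), and TFDP1, the E2F dimerization partner, from 118 and 98.6 to 75.0 and 65.4 CPM (-0.62, SE 0.17, adjusted p = 0.023). Each of these calls was lost in 3 of the 4 fits that leave out a library: WDR5 held without MGA B, and TFDP1 without empty vector B. The subunits that define the complex did not pass: the log2 fold change was 0.14 (SE 0.22) for E2F6, -0.06 (SE 0.26) for L3MBTL2 and -0.08 (SE 0.33) for PCGF6. Of 26 germline genes on the list, 5 had enough counts to be tested and none was called by edgeR or by DESeq2, nor had any an unadjusted p under 0.05. At these totals, a rise in the other germline genes was not detectable unless it reached the count filter.

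Cell cycle genes fell over several lists. Among 30 tested mitotic kinases, cyclins and regulators of the anaphase-promoting complex, 16 fell and none rose, with a median log2 fold change of -0.72. CDC25B, a phosphatase that activates the mitotic kinase CDK1, stood at 288 and 274 CPM with empty vector and at 106 and 78.4 CPM with MGA (log2 fold change -1.59, SE 0.14, adjusted p = 1.2e-08). TOP2A, the topoisomerase that untangles replicated chromosomes, stood at 494 and 525 CPM against 248 and 283 CPM (log2 fold change -0.95, SE 0.11, adjusted p = 5.8e-07). The proliferation marker MKI67 went from 273 and 327 to 177 and 184 CPM, and cyclin B1 (CCNB1) from 152 and 123.3 to 72.2 and 78.4 CPM. The MGA libraries lay below the empty vector libraries for each of these 4 genes, as they did for 3012 of all 11224 genes tested. CKS1B, which helps CDKs and the SCF ubiquitin ligase recognize their substrates and was among the 15 largest falls, went from 116 and 105 to 32.4 and 47.5 CPM (log2 fold change -1.49, SE 0.20, adjusted p = 7.7e-06). The count of 16 was 8 without empty vector A, 7 without empty vector B, 5 without MGA A and 9 without MGA B.

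Kinesins and spindle proteins followed, with 12 of 30 tested members lower, none higher and a median log2 fold change of -0.58. This count was 1 without empty vector A, 5 without empty vector B, 2 without MGA A and 6 without MGA B. HMMR, a spindle assembly factor, kept its call in each of these fits and went from 76.2 and 64.1 to 26.8 and 28.5 CPM (adjusted p = 0.00028, log2 fold change -1.35, SE 0.23). Of 45 kinetochore and centromere genes 5 fell, among them ZWINT, which went from 65.5 and 61.6 to 28.7 and 29.7 CPM (adjusted p = 0.0013, log2 fold change -1.12, SE 0.22). Of 20 cohesin and condensin genes 5 fell, including the condensin subunits NCAPD2 (log2 fold change -0.91, SE 0.15) and NCAPG (-1.25, SE 0.24). With single libraries left out, 2 to 5 kinetochore and centromere genes fell, and 3 cohesin and condensin genes.

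DNA replication genes were lower as well. Of 22 genes of the MCM helicase and of origin licensing, 10 fell and none rose, with a median log2 fold change of -0.76, but only 3 or 4 were called when any single library was left out. MCM4 went from 251 and 227 to 127 and 150 CPM (log2 fold change -0.80, SE 0.16, adjusted p = 0.0013, lost without empty vector A and without MGA A), and MCM7 from 286 and 308 to 211 and 197 CPM (-0.54, SE 0.12, lost without empty vector B and without MGA B). At the fork, 6 of 31 genes fell, and 2 to 4 did with a library left out. PCNA, the sliding clamp, went from 314 and 303 to 177 and 207 CPM (adjusted p = 0.00033, log2 fold change -0.70, SE 0.12). Of 30 repair and checkpoint genes 4 fell; 2 did without empty vector B, and none was called without empty vector A or without MGA A. RRM2, the ribonucleotide reductase subunit made for S phase, fell from 202 and 157 to 73.1 and 98.6 CPM (log2 fold change -1.09, SE 0.17, adjusted p = 7.3e-05), whereas its p53-induced relative RRM2B rose from 107 and 81.4 to 151 and 154 CPM (0.69, SE 0.16, adjusted p = 0.0043, lost without empty vector B).

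Regulators of G1 moved both ways, with 4 rises and 1 fall among 11 tested, and 1 or 2 rises with a library left out. CDK6 rose from 133 and 128 to 256 and 222 CPM (log2 fold change 0.88, SE 0.13, adjusted p = 4.2e-05), while its relative CDK4 went from 101 and 120 to 72.2 and 46.3 CPM (-0.86, SE 0.19, adjusted p = 0.0031, lost without empty vector B and without MGA B). The inhibitors CDKN1A (276 and 286 against 384 and 393 CPM, log2 fold change 0.47, SE 0.11) and CDKN1B (52.4 and 65.3 against 99.0 and 96.3 CPM, 0.73, SE 0.19) were called higher. CDKN1A lost its call with any 1 of the 4 libraries left out, and CDKN1B lost it without empty vector A, MGA A or MGA B.

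Other motifs were counted in the promoters of the cell cycle genes that fell, of which 85.7% had a window. CCAAT, searched on both strands, was in 75.9% of these windows, against 36.9% over all tested genes with a window. TTTGAA, the core of the cell cycle gene homology region, was in 40.7% against 9.23%, and TTCCCGC, an E2F element, in 20.4% against 10.8%. The variant E-box CACGCG was in 18.5% against 18.9%, and AGGTGTGA, a T-box element, in 0 of 54 windows against 0.667%. These shares are descriptions of letters in the same 300-base window, with no test of binding. Members of the same lists that were not called were not counted apart. Whether the shares go with the response to MGA was therefore not tested.

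**Figure D3:**
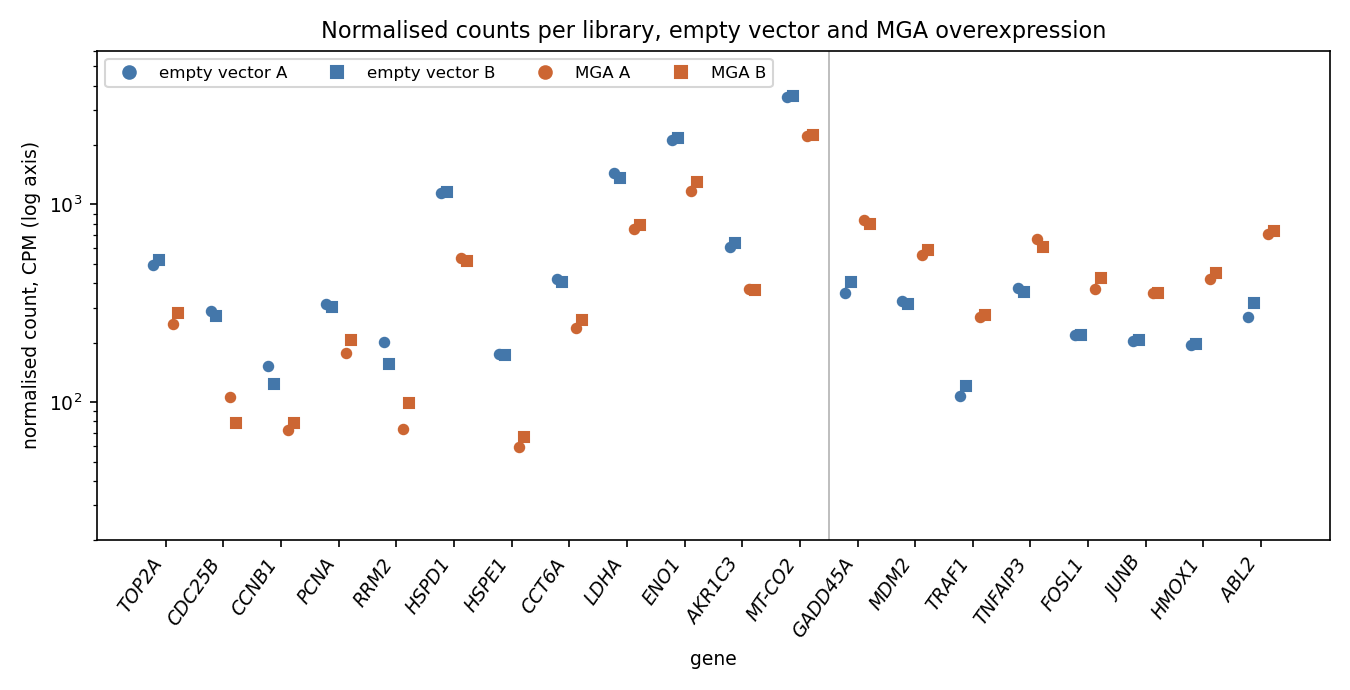
Normalised counts (CPM, log axis) of 20 genes in each of the 4 libraries, with empty vector in blue and MGA in orange, circles for replicate A and squares for replicate B. For the 12 genes to the left of the line, from TOP2A to MT-CO2, both MGA libraries lie below both empty vector libraries, and for the 8 genes to the right, from GADD45A to ABL2, they lie above. Over all 11224 genes tested, 3012 lie below and 2913 above in the same way.

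Protein-folding genes formed a further group of falls. All 8 subunits of CCT, the ring-shaped chaperonin that folds actin and tubulin, had negative log2 fold changes, and 7 fell (median -0.48). CCT6A went from 418 and 407 to 238 and 259 CPM (log2 fold change -0.74, SE 0.10, adjusted p = 1.9e-05), and CCT4 from 362 and 407 to 269 and 238 CPM (-0.59, SE 0.11). CCT2, at 326 and 317 against 292 and 296 CPM, did not pass (adjusted p = 0.50). The count of 7 was 4, 3, 5 and 4 without empty vector A, empty vector B, MGA A and MGA B.

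Among 21 cytosolic chaperones of the HSP70, HSP90 and HSP40 families and their helpers, 6 fell and 1 rose, and 5 or 6 were lower with any library left out. HSPA8, the constitutive HSP70, went from 1855 and 1924 to 1100 and 1005 CPM (log2 fold change -0.84, SE 0.11, adjusted p = 3.4e-06). The HSP90 genes HSP90AA1 (log2 fold change -0.53, SE 0.07) and HSP90AB1 (-0.61, SE 0.07) and the HSP90 cochaperone PTGES3 (499 and 456 against 230 and 250 CPM, -1.0, SE 0.10) fell too. The stress-inducible HSP70 genes HSPA1A and HSPA1B did not pass, at -0.22 and -0.24. Among the proteins that CCT folds, the tubulins TUBB (1061 and 1071 against 567 and 638 CPM) and TUBA1B (1287 and 1381 against 822 and 865 CPM) fell, as did the actin gene ACTG1 (3775 and 4157 against 2684 and 2687 CPM, adjusted p = 1.6e-06, log2 fold change -0.56, SE 0.07). Of 15 tubulin isotypes tested, 3 fell and 1 rose (TUBB2A), at a median of -0.135. The actin gene ACTA2 was called higher (1.14). The calls of TUBB2A and ACTA2 were lost with any 1 of the 4 libraries left out. In the endoplasmic reticulum 6 of 20 chaperones fell and 2 rose, but no more than 2 falls held with a library left out. PDIA4, a disulfide isomerase, went from 547 and 531 to 377 and 389 CPM.

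Genes of ribosome assembly and translation mostly did not pass. Of 47 nucleolar factors 6 fell and 1 rose (median log2 fold change -0.20), and 3 or 4 fell with a library left out. The abundant ones fell: nucleolin (NCL) from 1305 and 1260 to 699 and 746 CPM (log2 fold change -0.83, SE 0.08, adjusted p = 9.6e-08), and nucleophosmin (NPM1) from 1371 and 1291 to 918 and 924 CPM (-0.53, SE 0.08). None of 75 tested mitochondrial ribosomal proteins, none of 42 proteasome subunits and none of 27 TCA cycle genes was called in either direction, with medians of -0.10, -0.08 and -0.19. DESeq2 also called none of these, the fit of the 4 overexpression libraries alone called 1 mitochondrial ribosomal protein and 1 TCA cycle gene, and at an unadjusted p under 0.05 edgeR had 7, 1 and 2 lower and 0, 1 and 0 higher. Cytosolic ribosomal protein transcripts made up 15.02% and 15.48% of all TPM in the empty vector libraries, and 15.09% and 14.94% in the MGA libraries, so these ranges overlapped. Of 20 aminoacyl-tRNA synthetases 3 rose (CARS, SARS and TARS) and 1 fell (LARS), and each of these calls was lost without 2 or more of the libraries.

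Transcripts of some genes of nucleotide and glucose metabolism were lower. Of 14 purine synthesis genes 6 fell (median log2 fold change -0.47), and 2 to 4 with a library left out. The enzymes PAICS (278 and 255 against 142 and 170 CPM, log2 fold change -0.79, SE 0.14, adjusted p = 0.00032) and ATIC (189 and 181 against 99.0 and 115 CPM, -0.80, SE 0.15) act in the de novo pathway. CAD, the enzyme of the first steps of pyrimidine synthesis, went from 173 and 181 to 88.9 and 87.9 CPM (log2 fold change -0.999, SE 0.15, adjusted p = 3.8e-05), and 5 of 18 pyrimidine and deoxynucleotide genes fell against 1 that rose, with 2 or 3 falls when a library was left out. Of 25 glycolysis genes 8 fell and none rose (median -0.28), and 5 to 7 with a library left out. LDHA, which makes lactate, went from 1443 and 1366 to 751 and 789 CPM (log2 fold change -0.87, SE 0.08, adjusted p = 1.6e-08), ENO1 from 2121 and 2181 to 1169 and 1300 CPM (-0.80, SE 0.08), and the lactate exporter SLC16A3 from 358 and 408 to 218 and 188 CPM (-0.91, SE 0.12). GAPDH, TPI1 and PKM, in the same pathway, did not pass, at -0.21, -0.15 and -0.09.

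Of 24 aldo-keto reductases and aldehyde dehydrogenases, enzymes that A549 cells carry at high levels through active NRF2, 9 fell and none rose (median -0.43), and 4 to 6 with a library left out. AKR1C3 stood at 612 and 636 against 374 and 367 CPM (log2 fold change -0.75, SE 0.10, adjusted p = 3.8e-06), and ALDH1A1 at 2860 and 2809 against 1967 and 2069 CPM (-0.49, SE 0.06, adjusted p = 5.9e-06). AKR1C1, AKR1C2 and AKR1C3 are near-identical copies among which RSEM divides reads, so their separate values are uncertain. HMOX1, another NRF2 target, moved the other way, from 194 and 197 to 421 and 452 CPM (log2 fold change 1.15, SE 0.13, adjusted p = 4.1e-07). The fatty acid enzyme ACLY went from 759 and 789 to 572 and 522 CPM (-0.50, SE 0.09), as 1 of 4 falls among 15 genes of that pathway (1 to 3 with a library left out). Of 13 tested epithelial and A549 markers 6 fell, among them AKR1C1, AKR1B10 (lost without empty vector A and without MGA A) and ALDH1A1, and the summed level of these 13 markers went from 12590 and 13120 to 10430 and 10520 CPM. In bulk RNA, fewer cells of a kind and less RNA per cell cannot be told apart.

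Protein-coding transcripts of the mitochondrial genome were lower in nearly every member. Of 24 mitochondrial rRNA and tRNA genes, only 2 had enough counts to be tested. Of these 1 fell and 1 was not called, at log2 fold changes of -0.21 and -0.03. Of 13 mitochondrially encoded protein genes, 10 fell and none rose (median log2 fold change -0.47), and 10 or 11 fell with any library left out. MT-CO2, a subunit of cytochrome oxidase, stood at 3496 and 3528 CPM against 2214 and 2259 CPM (log2 fold change -0.65, SE 0.07, adjusted p = 1.8e-07), and MT-ATP6 at 2080 and 1882 against 1275 and 1318 CPM (-0.61, SE 0.08). MT-ND3, at 382 and 318 against 357 and 358 CPM, was the exception, with overlapping groups and a log2 fold change of 0.03. Per length, these genes made up 7.67% and 7.36% of all TPM without MGA in the empty vector libraries and 5.63% and 5.56% in the MGA libraries. The mitochondrial ribosomal RNA MT-RNR2 fell less, from 9138 and 8826 to 7783 and 7806 CPM (log2 fold change -0.21, SE 0.06, adjusted p = 0.039), and lost its call with any library left out. Of 76 tested subunits of the same respiratory chain that the nucleus encodes, 1 fell (ATP5G1, lost without empty vector A and without MGA A) and none rose. The share of mitochondrial counts, often read as a sign of library quality, was lower in both MGA libraries, at 3.97% and 3.86% against 3.02% and 3.03%; its part in the other results was not tested.

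**Figure D4:**
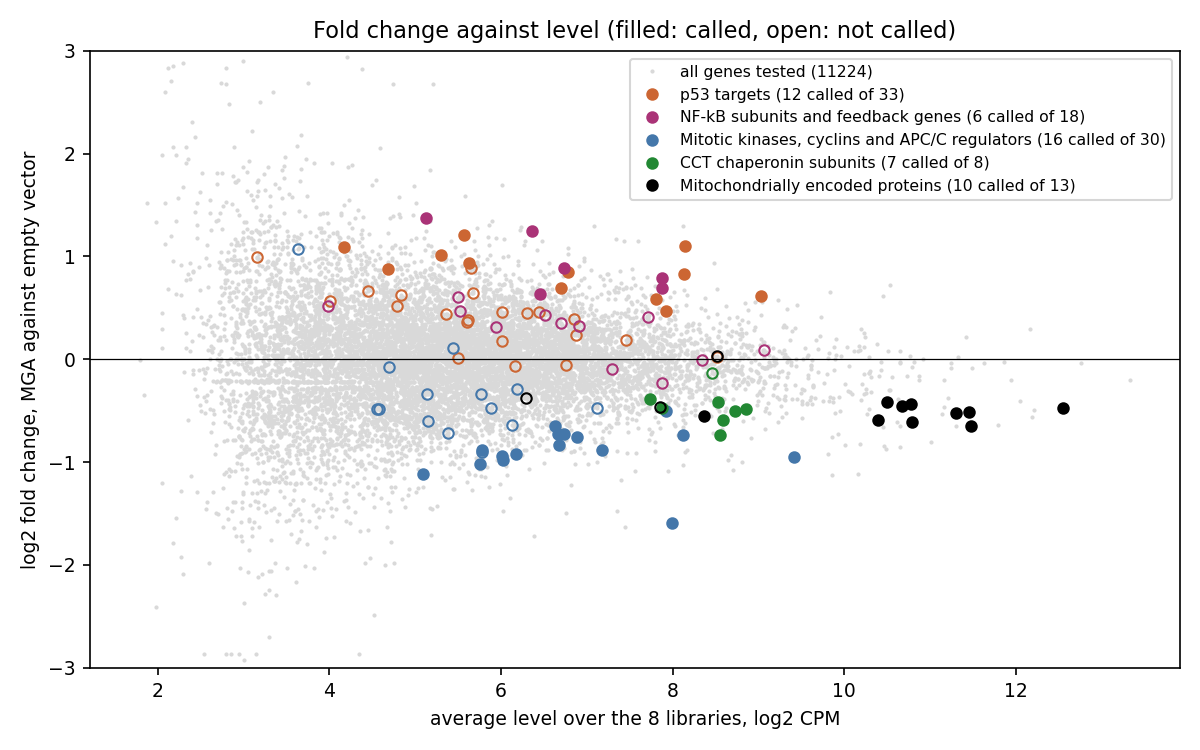
Log2 fold change with MGA against the average level (log2 CPM over 8 libraries) for the 11224 genes tested, in grey, with 5 families in colour, filled where called. The called p53 targets (12 of 33) and NF-kB genes (6 of 18) lie above 0, and the called mitotic genes (16 of 30), CCT subunits (7 of 8) and mitochondrially encoded genes (10 of 13) below, while 30 genes beyond a log2 fold change of 3 in size are not drawn.

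In the stress lists, 12 of 33 targets of the tumour suppressor p53 rose, none fell, and the median log2 fold change was 0.57. The p53 protein is a transcription factor that is wild type in A549 cells. GADD45A, a growth arrest gene, stood at 358 and 404 CPM with empty vector and at 833 and 799 CPM with MGA (log2 fold change 1.10, SE 0.11, adjusted p = 8.2e-08). MDM2, the ubiquitin ligase that limits p53, stood at 324 and 314 against 553 and 586 CPM (0.83, SE 0.10, adjusted p = 2.0e-06), and SERTAD1 at 48.8 and 51.8 against 122 and 109 CPM (1.21, SE 0.19, adjusted p = 0.00011). PLK2 went from 729 and 708 to 1116 and 1078 CPM (0.61, SE 0.10). In these 4 genes both MGA libraries were higher than both empty vector libraries, as in 2913 of all 11224 genes tested. The whole list grew from 0.315% and 0.331% to 0.509% and 0.497% of all TPM. The count of 12 was 8 without either empty vector library and 9 without either MGA library. Not every target rose: BAX, at 98.8 and 116 against 110 and 95.1 CPM, had a log2 fold change of -0.05 (SE 0.17).

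Neighbouring stress genes rose in smaller numbers. The BH3-only death genes PMAIP1 (270 and 298 against 414 and 487 CPM, log2 fold change 0.66, SE 0.12, adjusted p = 0.00033) and BBC3 (46.4 and 53.01 against 99.0 and 102 CPM, 1.02, SE 0.20, adjusted p = 0.0011) were the 2 called among 15 tested genes of the BCL2 family. In the ATF4-CHOP stress response 4 of 18 genes rose (2 or 3 with a library left out). DDIT3, which encodes CHOP, went from 60.7 and 66.6 to 141 and 143 CPM (log2 fold change 1.15, SE 0.17, adjusted p = 4.3e-05), and ATF3 from 276 and 288 to 452 and 460 CPM (0.69, SE 0.11). The autophagy receptor SQSTM1 rose from 1311 and 1324 to 2024 and 2018 CPM (0.62, SE 0.07, adjusted p = 1.3e-06). It was 1 of 5 rises among 32 lysosome and autophagy genes (2 to 4 with a library left out), and the cholesterol exporter of the lysosome, NPC1, was 1 of 2 falls (349 and 365 against 226 and 222 CPM).

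Of 18 NF-kB subunits and feedback genes 6 rose and none fell (median log2 fold change 0.45), and 5 or 6 rose with any library left out. TRAF1 stood at 107 and 121 against 268 and 275 CPM (log2 fold change 1.25, SE 0.13, adjusted p = 2.0e-07). The feedback inhibitors TNFAIP3 (377 and 361 against 671 and 608 CPM, 0.80, SE 0.12) and NFKBIE (40.5 and 35.8 against 88.9 and 112 CPM, 1.38, SE 0.21), and the subunit NFKB1 (118 and 112 against 208 and 220 CPM, 0.89, SE 0.14), rose as well. The classical feedback gene NFKBIA had a log2 fold change of 0.41 and did not pass. Chemokines and cytokines did not follow as a group, with 2 rises and 2 falls among 28 tested, and each of these 4 calls was lost without 2 or more libraries. Interferon-stimulated genes went largely the other way, with 8 falls and 2 rises among 36 (3 to 5 falls with a library left out). BST2, a protein that tethers viruses to the cell, fell from 125 and 120 to 56.5 and 41.6 CPM (log2 fold change -1.30, SE 0.20, adjusted p = 5.0e-05). OAS3, a sensor of double-stranded RNA, fell from 1385 and 1435 to 1028 and 1030 CPM (-0.45, SE 0.08). OAS2, of the same list, stood at 476 and 465 CPM with empty vector and at 342 and 315 CPM with MGA. In the siMYC contrast, its log2 fold change and SE were both 0.000, as for a gene without counts. The SE there was 1.51 for BST2 and 0.11 for OAS3. Whether the empty vector level of these genes is usual for A549 cells was not tested.

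AP-1 and immediate early factors rose in 10 of 22 cases, with none falling and a median of 0.37. FOSL1 stood at 219 and 219 against 375 and 424 CPM (log2 fold change 0.86, SE 0.11, adjusted p = 6.4e-06), JUNB at 205 and 206 against 357 and 358 CPM (0.80, SE 0.11, adjusted p = 1.7e-05), and MAFF at 58.4 and 76.4 against 136 and 146 CPM (1.06, SE 0.19). FOS, at a log2 fold change of -0.57, did not pass. The count of 10 was 5, 6, 5 and 7 without empty vector A, empty vector B, MGA A and MGA B. Of 19 tested RAS-ERK output and feedback genes, 3 rose and 1 fell. Among the rises were 2 receptor genes. EGFR rose from 605 and 603 to 865 and 911 CPM (0.56, SE 0.11, adjusted p = 0.00096) and EPHA2 from 391 and 462 to 663 and 626 CPM (0.60, SE 0.11). Of 18 YAP-TEAD factors and targets 4 rose (2 or 3 with a library left out), among them AMOTL2 (192 and 205 against 300 and 334 CPM, 0.67, SE 0.12). Among secreted and surface proteins, IGFBP4 fell from 1789 and 2014 to 1202 and 1224 CPM (-0.65, SE 0.07). The pore-forming claudin CLDN2 fell from 118 and 184 to 47.2 and 49.9 CPM (-1.63, SE 0.21, adjusted p = 3.4e-06). CLDN2 was the 1 fall among 30 tested claudins, cadherins and junction genes, of which 5 rose (median 0.06). The matrix list moved both ways: the laminin chain LAMB3 rose (0.70), whereas COL4A1 and ITGB3 fell (-0.52 and -0.995), within 4 rises and 7 falls of 51 (2 or 3 rises and 3 to 7 falls with a library left out).

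Several of the 15 largest rises lie outside these families. ABL2, a cytoplasmic tyrosine kinase, stood at 270 and 316 against 705 and 738 CPM (log2 fold change 1.30, SE 0.11, adjusted p = 8.7e-09). The chloride cotransporter SLC12A7 stood at 124 and 129 against 301 and 324 CPM (1.30, SE 0.14, adjusted p = 1.8e-07), and the nuclear envelope protein SYNE1 at 60.7 and 55.5 against 140 and 138 CPM (1.26, SE 0.18). SLFN5, an interferon-inducible Schlafen protein, went from 31.0 and 30.8 to 99.0 and 102 CPM (1.70, SE 0.23, adjusted p = 8.6e-06), and the small GTPase GEM from 41.7 and 49.3 to 137 and 137 CPM (1.59, SE 0.20). RAP1GAP2, the largest of the 15 by count (8.34 and 8.63 against 30.5 and 30.9 CPM, 1.84, SE 0.35), was not higher per length, at 10.8 and 10.7 against 6.97 and 11.3 TPM. Per length, the groups also overlapped for AMOTL2 (64.15 and 140.54 against 114.39 and 124.28 TPM) and MNT (16.43 and 6.99 against 12.45 and 18.24 TPM), both given above as rises. Among the largest falls beyond the cell cycle were MARVELD1 (72.6 and 72.7 against 26.8 and 25.0 CPM, -1.48, SE 0.22) and the receptor gene NPY4R (90.5 and 88.8 against 41.7 and 34.5 CPM, -1.22, SE 0.20). Zinc finger genes of the ZNF family, 258 tested, gave 9 rises and 4 falls (1 to 5 rises and at most 1 fall with a library left out).

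Transcript length moved with the fold change. Among the 6588 genes with an average log2 CPM of at least 5, the median log2 fold change was -0.06 in the shortest of 10 equal classes and 0.07 in the longest, and the median length was 3109 bases for genes that rose, 2534 for genes that fell and 2513 over all of them. Its part in the results above was not tested.

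The difference from the response to MYC silencing was tested as an interaction (the MGA response minus the siMYC response), in which the comparisons share no library. At an adjusted p under 0.05, 1992 of 11224 genes (17.7%) differed, and 1304 to 1924 did with any 1 of the 8 libraries left out. For ribosome assembly the responses were far apart: of 47 nucleolar factors 34 differed, all with the MGA response the higher (29 to 35 differed with a library left out), at a median of -0.20 with MGA and -1.21 with siMYC. NPM1 fell by 0.53 on the log2 scale with MGA and by 1.55 with siMYC (difference 1.02, adjusted p = 5.6e-08). For the mitotic list, at medians of -0.72 and -0.64, 2 of 30 genes differed, one of them CDC25B (-1.59 against 0.22, difference -1.81, adjusted p = 1.1e-08). A difference was not detected for the other 28, which does not show that they responded alike.

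Some genes changed in opposite directions. CDK6 rose with MGA and fell with siMYC (0.88 against -1.13, difference 2.01, adjusted p = 1.8e-09), as did FOSL1 (0.86 against -1.12, difference 1.99). CLDN2 fell with MGA and rose with siMYC (-1.63 against 1.53, difference -3.17, adjusted p = 2.7e-10), and so did AKR1C3 (-0.75 against 0.83, difference -1.58) and TGFBI (-0.46 against 0.91, difference -1.37). Of 51 matrix genes 30 differed, all lower in the MGA response, with medians of -0.13 and 0.83. All 10 mitochondrially encoded genes that differed were lower with MGA, and 6 differed without empty vector A, MGA A, MGA B or siNC B; MT-CO2 stood at a log2 fold change of -0.65 with MGA and 0.00 with siMYC (adjusted p = 1.2e-05). Of 33 p53 targets 15 differed, 13 of them higher with MGA, and the 15 became 9 without empty vector B: GADD45A stood at 1.10 against -0.11 (adjusted p = 0.00046) and MDM2 at 0.83 against -0.02 (adjusted p = 0.00017). For the purine genes PAICS and ATIC, both of which fell in both experiments, PAICS fell less with MGA (-0.79 against -1.96, adjusted p = 4.4e-05), and ATIC did not differ detectably (-0.80 against -0.87, adjusted p = 0.85).

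**Figure D5:**
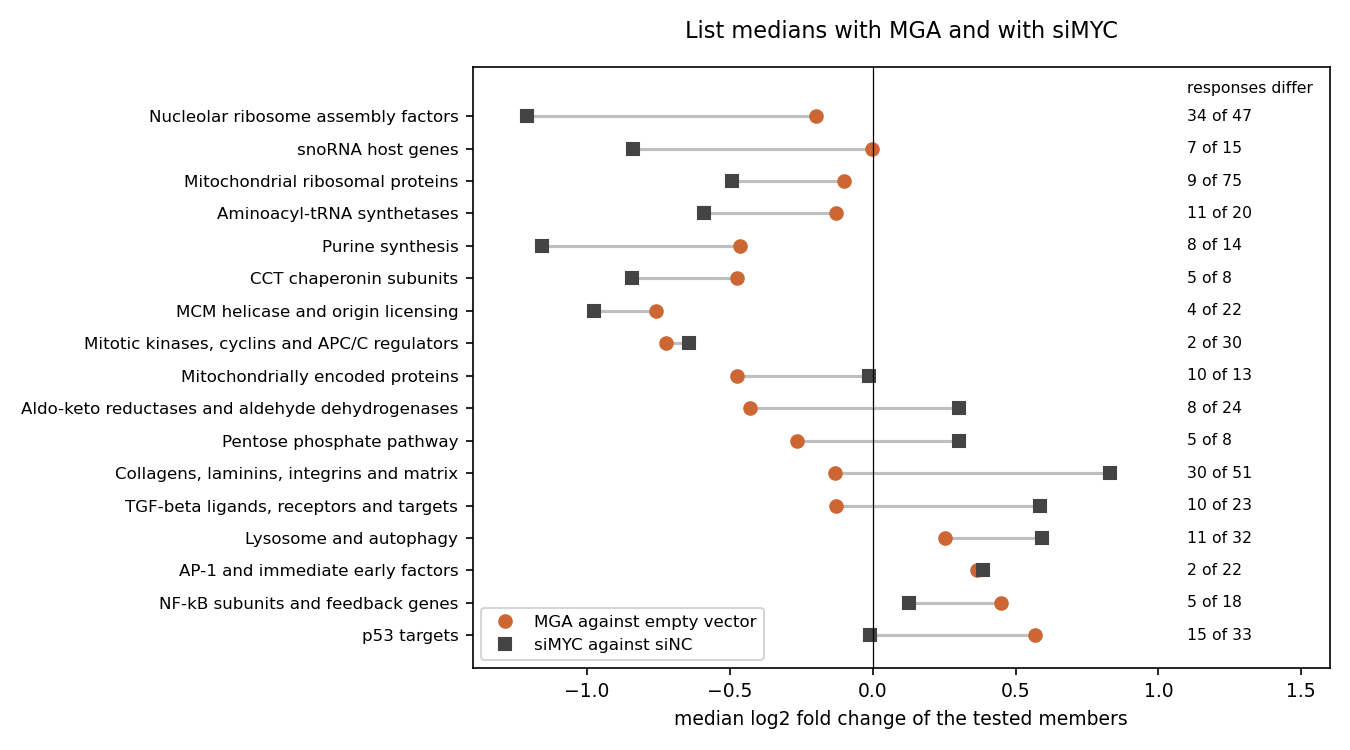
Median log2 fold change of the tested members of 17 gene lists with MGA against empty vector (orange circles) and with siMYC against siNC (dark squares), and at the right the number of members whose responses differ in the interaction test. The medians lie close for mitotic genes (-0.72 and -0.64) and far apart for nucleolar factors (-0.20 and -1.21) and matrix genes (-0.13 and 0.83).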

How the data were processed

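The 8 libraries were made from poly(A)-selected RNA, per the labels' protocols. Reads were processed with STAR and RSEM on hg19, per the submitters' processing notes; versions and annotation are not given in those notes. The authors deposited a table of 57820 genes per library, which per the file headers holds RSEM's expected counts (reads shared by genes are split between them), TPM (the deposited TPM are scaled per library and corrected for length) and FPKM, which were not used. The length of each gene, in bases, is also deposited and served only for the comparison by length. Whether counting used strand is not stated, so genes that overlap others are uncertain, as are genes with near-identical copies or processed pseudogenes (among them HSPD1, HSPE1, LDHA, ENO1, NPM1, HSPA8, TUBB, ACTG1 and the mitochondrial genes).

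Expected counts were rounded, the MGA row was removed, and filterByExpr (minimum count 10, minimum total 15) left 11224 genes. All 8 libraries were fitted in edgeR 4.0.16 (R 4.3.3) with TMM scaling and 4 groups, which leaves 4 residual degrees of freedom. Contrasts were tested two-sided by edgeR's quasi-likelihood F test, with Benjamini-Hochberg adjustment over the genes tested. The common biological coefficient of variation came to 0.0622, and to 0.0343 when only the 4 overexpression libraries were fitted. It came to 0.0725 when only the 4 siRNA libraries were fitted. CPM are TMM-scaled and are printed for libraries A and B in that order. SE, the standard error, refers to log2 fold changes. For 2 against 2 libraries the smallest p of an exact permutation test is 0.333, and none was run. The 71 gene lists and the members were chosen with earlier results of these data known, and lists are described by counts and medians, with no test. Genes named are members of the MYC-MAX-MLX and PRC1.6 lists, the 15 largest rises and falls (average log2 CPM of at least 5, groups not overlapping), up to 4 called members per list with the smallest p, or else the most abundant member tested, and the 10 most abundant called genes by TPM. The text shows a part of the 249 genes this gives, picked in part because their calls held with libraries left out. Others, mostly genes named because they did not pass (CCT2, HSPA1A, HSPA1B, GAPDH, TPI1, PKM, MT-ND3, BAX, NFKBIA and FOS), were chosen after their values were seen. Some genes the rule gives are not reported here. Alternatives were other size factors, MGA kept, no count filter, the overexpression libraries alone, a replicate block, DESeq2 1.42.0, limma 3.58.1 on log2(TPM + 1) and log2(TPM + 0.1), and each library left out. When 1 is left out, the lone sample of a group is assumed to vary like the other groups. The groups differed in spread: the replicate chi-square for each degree of freedom was 1.82 (siNC) and 1.85 (siMYC), against 1.18 (empty vector) and 1.13 (MGA).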

Additional observations from a re-analysis of the deposited data

How the results depend on the processing

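With 2 libraries per group and these totals, modest changes of genes of low abundance lie below what these data can show. The number of genes called was 995, and it stayed within 1.5 times of that under every other size factor, without the count filter (1039 of 21043 genes), with the overexpression libraries alone (1418 of 9726 genes) and with MGA kept. It was 345 with DESeq2, 81 with limma on TPM + 1 and 62 on TPM + 0.1, and it ranged from 389 to 457 with a library left out. At an unadjusted p under 0.05, edgeR gave 2497 genes and limma on TPM + 1 gave 2064. The share of rises was 51.2% and moved to 55.3% with MGA kept, 56.6% with RLE, 38.2% with upper-quartile factors, 58.5% with totals alone, 26.7% with totals that include MGA, 45.8% with DESeq2, 38.3% on TPM + 1 and 30.6% on TPM + 0.1, and it ranged from 44.4% to 51.2% with a library left out. The labels do not say whether letters A and B pair the samples. Deviations of same-lettered empty vector and MGA libraries correlated at -0.0245 over 6588 genes, and those of siNC and siMYC libraries at 0.255. A replicate block gave 1240 calls, 994 of them among the 995. The interaction gave 1992 genes, and 812 with DESeq2; settings added after the data were seen gave 2262 with the replicate block, 347 on TPM + 1, 333 on TPM + 0.1 and 1304 to 1924 with a library left out. Of 224 called genes that the naming rule gives, 104 were called with every library left out and 38 in all settings. Signs reversed on TPM for RAP1GAP2 (-0.248 on TPM + 1, -0.274 on TPM + 0.1) and BRCA2 (0.626 and 0.706), without a call. The share of tested promoters with CACGTG was 10.4%, and 9.10% before the start alone. For falls of at least 1.5-fold 77.0% had a window, under the 80% required, so no share is given for them. List medians printed in the text kept their sign under the 5 other size factors; that of the snoRNA host genes, which is only drawn (-0.004), turned to 0.014 with MGA kept, 0.019 with RLE and 0.029 with totals alone. The causes of these shifts were not tested.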
